A study of Mus musculus with 6 samples.

Results

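The genes described here are 40 genes of the unfolded protein response and the early secretory pathway, taken by gene symbol from a fixed list of endoplasmic reticulum (ER) stress sensors, ER chaperones, disulfide isomerases, subunits of the translocon and the signal peptidase, genes of ER-associated degradation and KDEL receptors. All 40 were found among the 24452 gene symbols of the series. They were measured by polyA RNA-seq in small intestine of C57BL/6 mice at postnatal day 14, before weaning. One group of 3 libraries is labelled wild type and the other group of 3 is labelled Erk1/2 -/-, called the labelled knockout here. The series title places the question in negative feedback through these kinases and the intestine after birth. The labels name no promoter, Cre line or tissue that would limit the deletion, and do not say that the 3 libraries of a group came from separate animals. By Xist, described below, each group held libraries of both sexes, so the 3 did not all come from a single animal. The p-values still rest on a spread that may be technical in part. Values are called normalised counts here: whole numbers per gene that behave as read counts divided by a factor per library. In bulk tissue, fewer cells of a type and less RNA per cell cannot be told apart.

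Whole-series facts bear on every value below. Library totals ran from 13641468 to 17153570 normalised counts. Mapk3, encoding ERK1, had 2004 to 3142 in wild type and 2280 to 3363 in the labelled knockout. The groups overlapped, so this transcript total does not bear out the labels, and every direction below is that of the labels. Markers of epithelium, Vil1 with at least 16362 and Epcam with at least 20039 in each library, were high throughout. The enterocyte list of 10 genes, which holds both, moved both ways. Of its log2 fold changes 7 were positive, while Lct had 46808 to 49910 in wild type and 13898 to 28904 in the labelled knockout. Xist, a transcript of females, was above 1000 in wild type 3 and labelled knockout 2 and 3 and at 19 or less in the other 3 libraries, so the groups were not balanced in sex. Wild type 3 and labelled knockout 1 stood apart in a score of gut position markers. The score, 8 proximal markers minus 5 ileal markers, centred over libraries on the log2 scale, was -2.96 and -3.005 there. It was between 0.61 and 2.13 in the other 4. Of 7 ileal markers listed, Fabp6 and Slc10a2 were too low for the filter and are not in the score. Fabp6 had 1947 in labelled knockout 1 and 1 to 4 in every other library, wild type 3 included. Slc10a2 had 0 to 12 throughout.

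Secreted and membrane proteins enter the ER through the Sec61 channel, lose their signal peptide to the signal peptidase, and fold with the help of chaperones such as BiP and of disulfide isomerases. When unfolded proteins build up, 3 sensors in the ER membrane respond: IRE1 removes an intron from Xbp1 messenger RNA, ATF6 is cut in the Golgi to release a transcription factor, and PERK slows translation by phosphorylating eIF2alpha. XBP1 and ATF6 then raise genes for folding, translocation and degradation, and KDEL receptors bring escaped ER proteins back from the Golgi. In the gut this machinery carries the output of mucus and antimicrobial proteins by goblet and Paneth cells and of lipoproteins by enterocytes, where the disulfide isomerase P4HB is also a subunit of the microsomal triglyceride transfer protein.

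Many of these genes share a promoter element. The ER stress response element (ERSE), to which ATF6 binds with NF-Y, is written CCAAT, any 9 bases, then CCACG. It was searched on both strands in RefSeq promoter windows of 300 bases, 250 before and 50 after a gene's start (GRCm38.p6). Of the 40 genes, 30 matched a window. An ERSE lay in 9 of these 30, or 30.0%, compared with 18 of 11134 tested genes with a window, or 0.162%. The 18 include these 9. The 40 genes were chosen as genes of the response that the element is named for, so a high share was built into the choice and tests nothing. For the motifs below, the tested genes likewise include the members. The matches are shown with the fixed letters in capitals and each read along the strand of the motif.

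Hspa5: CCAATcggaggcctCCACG
Hsp90b1, first match: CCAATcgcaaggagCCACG
Hsp90b1, second match: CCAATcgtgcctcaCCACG
Calr: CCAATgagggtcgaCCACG
Canx: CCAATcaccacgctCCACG
Pdia6: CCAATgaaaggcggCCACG
Dnajc3: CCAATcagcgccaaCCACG
Creld2: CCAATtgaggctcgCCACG
Syvn1: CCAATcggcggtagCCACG
Derl3: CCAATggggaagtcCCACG

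The ERSE of Hspa5, the gene of BiP, spanned 65 to 47 bases before its start, and those of Hsp90b1 lay 212 to 194 and 107 to 89 bases before it. The shorter element ERSE-II, written ATTGG, any base, then CCACG, was in Herpud1 (ATTGGgCCACG) and Dnajb11 (ATTGGcCCACG), or 6.67% of the 30 and 0.0719% of tested genes. The core of the unfolded protein response element, TGACGTGG, to which XBP1 and ATF6 bind, was in Kdelr3 alone among the 30, at 30 to 23 bases before the start, or 3.33% compared with 1.04% of tested genes. Its reverse complement opens with the CCACG that closes an ERSE, and no matches overlapped in these windows. The 250 bases before the start of Hspa5 (chr2:34771840-34772089, plus strand) and Kdelr3 (chr15:79516158-79516407, plus strand) are printed, as a gene that did not pass the test below and a gene that did, with the motif in capitals.

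Hspa5: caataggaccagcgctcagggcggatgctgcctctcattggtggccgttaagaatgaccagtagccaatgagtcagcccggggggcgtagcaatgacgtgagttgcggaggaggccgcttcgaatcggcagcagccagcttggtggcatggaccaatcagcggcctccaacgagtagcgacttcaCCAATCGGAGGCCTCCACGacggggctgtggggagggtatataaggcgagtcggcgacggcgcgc
Kdelr3: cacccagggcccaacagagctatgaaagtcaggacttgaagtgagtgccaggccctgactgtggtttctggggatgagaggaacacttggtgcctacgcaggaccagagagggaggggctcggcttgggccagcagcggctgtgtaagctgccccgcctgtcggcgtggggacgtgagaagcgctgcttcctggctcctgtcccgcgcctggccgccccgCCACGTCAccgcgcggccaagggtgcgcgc

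In Kdelr3 the capitals are the reverse complement of TGACGTGG, since the match was on the opposite strand. None of the 3 motifs was found in the windows of Xbp1, Sec61b and Ssr1, which is a statement on these letters in these windows only. Ern2, Atf6, Hyou1, Manf, Derl1, Sec61a1, Ssr2, Sec11c, Spcs3 and Kdelr2 had no window in the table.

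The comparison of the labelled knockout with wild type asked which of the 40 genes differed between the labels. Of the translocon 3 of 6 genes, of the signal peptidase 1 of 4 and both KDEL receptor genes were higher in the labelled knockout, as was Xbp1, while no chaperone, disulfide isomerase or degradation gene passed the test. A gene is called when its limma p, adjusted by Benjamini-Hochberg over all 14686 genes tested, is under 0.05. All 40 genes passed the filter on low values, and 7 were called, all higher: Xbp1, Sec61a1, Sec61b, Ssr1, Sec11c, Kdelr2 and Kdelr3. That is 17.5% called higher, beside 4.85% of all genes tested, and 0 called lower, beside 3.94%, so that 8.79% of all genes were called in either direction. At an unadjusted p under 0.05 there were 13 of the 40, near the 30.3% of all genes tested. The libraries of the groups did not overlap for 14 genes higher and 1 lower, or 15 of 40, beside 37.6% of all genes tested (19.8% higher and 17.8% lower). The share apart in either direction is thus near that of all genes, and it is the direction that was uneven. The median log2 fold change of the 40 was 0.29 and that of all genes -0.01. Of the 40 log2 fold changes 34 were positive, beside 49.1% of all genes, and 24 were positive with library totals as the scaling, where the medians were 0.12 and -0.19. The 7 calls rest on few libraries: leaving out wild type 1, 2 or 3 left 0, 0 and 1 of them called, and leaving out labelled knockout 1, 2 or 3 left 7, 2 and 0. In the same order all genes called were 78, 57 and 387, and then 2998, 619 and 28, beside 1291 with all libraries. Of 19 alternatives, the call held in 15 for Sec11c, 13 for Kdelr3, 12 for Sec61a1, 11 for Kdelr2, 10 for Xbp1, 10 for Sec61b and 7 for Ssr1. All 7 kept a positive sign in each, which groups that do not overlap largely fix.

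**Figure D1:**
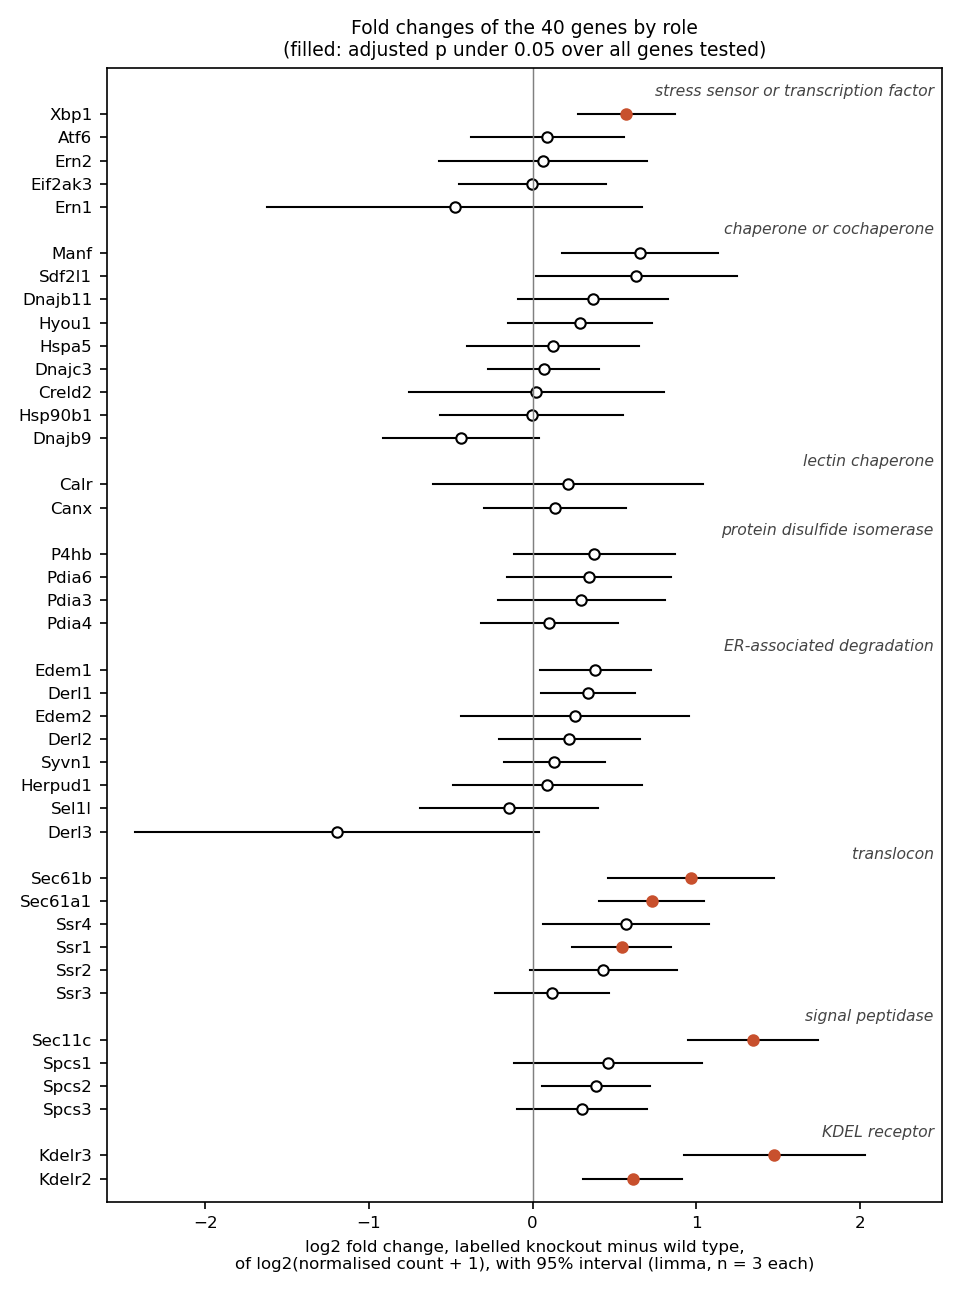
Log2 fold change (x axis, labelled knockout minus wild type, of log2 of normalised count plus 1) with its 95% interval for each of the 40 genes, ordered by role. Filled points are the 7 called genes, which lie among the sensors and transcription factors, the translocon, the signal peptidase and the KDEL receptors, and most intervals of chaperones and degradation genes include 0.

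Markers of secretory cells moved with the labels, and their part in the results below was not tested. The goblet cell list summed to 46948 to 73814 normalised counts in wild type and 95190 to 135868 in the labelled knockout. Of its 10 tested genes 7 were higher without overlap, beside 19.8% of all genes, and 2 were called higher (Spink4 and Zg16), beside 4.85%. The Paneth cell list summed to 2438 to 10077 and 14215 to 22711, with 5 of 8 tested genes higher without overlap and 3 called higher, beside the same shares of all genes. No marker of either list was at 0 in all libraries. Of the plasma cell list, the antigen receptor constant genes are not used here, and Sdc1, which epithelium also makes, was called higher while Cd79a was called lower. Of its other genes, Mzb1 at 11 to 16 and Tnfrsf17 at 0 or 1 in every library were near the floor. Jchain overlapped, with 69, 22 and 8 in wild type and 17, 24 and 125 in the labelled knockout. Irf4 (-1.19 ± 0.42) and Pou2af1 (-1.51 ± 0.50) were lower without overlap and not called, with 5 to 34 normalised counts. Exocrine pancreas genes, whose cells are rich in ER, summed to 48095 in wild type 1 and to 291 to 7835 in the other 5 libraries. The neutrophil list summed to 183 to 243 in wild type and 346 to 919 in the labelled knockout. Of its 5 tested genes 3 were called higher and 1 lower, beside 4.85% and 3.94% of all genes. Those called higher were S100a9 (5 to 17 and then 122 to 404), S100a8 (2 to 4 and 31 to 172) and Ltf (31 to 44 and 122 to 277). Retnlg was called lower (107 to 179 and 37 to 63), and Elane was at 0 or 1 in every library. The smooth muscle list summed to 35050 to 50521 and 27302 to 38680, with 0 of 6 called, beside 8.79% of all genes.

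Among the sensors and transcription factors, Xbp1 rose and the sensor genes did not pass. Xbp1 (chromosome 11, 5520659 to 5525893, GRCm38), whose spliced product drives ER expansion in secretory cells, had 1710, 1616 and 1812 normalised counts in libraries 1, 2 and 3 of wild type, and 2489, 2699 and 2447 in the same order of the labelled knockout. Every labelled knockout library lay above every wild type library. Group means of 1713 ± 98.0 and 2545 ± 135 (SD, n = 3 each) differed by 0.57 ± 0.13 in log2 (SE; limma adjusted p = 0.0408), and the call was lost with library totals (limma adjusted p = 0.104) and without an intensity trend. A gene total does not tell spliced from unspliced Xbp1 transcripts, so it holds no value for IRE1 activity. Ern1, encoding the widely expressed sensor IRE1alpha, had 462, 411 and 306 in wild type and 122, 439 and 401 in the labelled knockout. Labelled knockout 1 was the lowest of the 6 libraries and the other 2 lay within the range of wild type. Its log2 fold change was -0.48 ± 0.48 (limma adjusted p = 0.537), and 0.12 without labelled knockout 1.

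Ern2, encoding IRE1beta, the form particular to gut and airway epithelium and strong in goblet cells, had 262, 250 and 210 in wild type and 165, 309 and 307 in the labelled knockout. Here too labelled knockout 1 was lowest, and the groups overlapped. The difference was 0.06 ± 0.27 on the log2 scale (95% interval -0.57 to 0.70), beside a summed level of the goblet cell list that was higher in all 3 labelled knockout libraries. Eif2ak3, encoding PERK, had 686, 670 and 869 in wild type and 611, 894 and 730 in the labelled knockout, and the groups overlapped (95% interval of the log2 difference -0.45 to 0.45). Atf6 had 498, 464 and 493 in wild type and 399, 659 and 523 in the labelled knockout. Labelled knockout 1 was again the lowest library and labelled knockout 2 the highest (95% interval -0.38 to 0.56). With these sensors the 5 genes of the group gave 1 call of 5 and a median log2 fold change of 0.06.

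**Figure D2:**
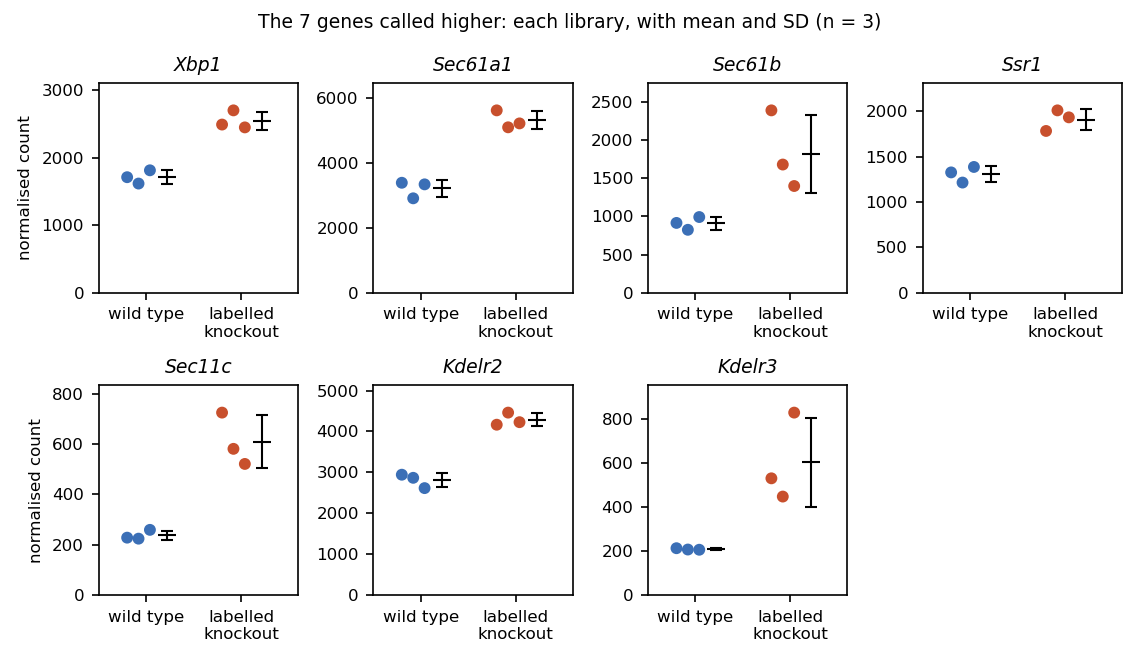
Normalised counts (y axis, from 0) of the 7 called genes in each library, 3 wild type and 3 labelled knockout, with the mean and SD beside the points. In each panel all labelled knockout libraries lie above all wild type libraries, and Sec61b, Sec11c and Kdelr3 spread more widely in the labelled knockout than in wild type.

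Both KDEL receptor genes among the 40 rose. These receptors bind the carboxy-terminal retrieval signal of ER proteins in the Golgi and carry them back in COPI vesicles. Kdelr3 (chromosome 15, 79516411 to 79527739) had 213, 207 and 206 in wild type and 531, 448 and 830 in the labelled knockout. The wild type libraries were nearly equal, while labelled knockout 3 stood above the other 2. Group means of 209 ± 3.79 and 603 ± 201 (SD, n = 3 each) gave the largest log2 fold change of the 40, at 1.48 ± 0.23 (limma adjusted p = 0.0200). Kdelr2 (chromosome 5, 143403838 to 143421901) had 2943, 2867 and 2615 in wild type and 4166, 4462 and 4228 in the labelled knockout. The groups were far apart beside their spread, with means of 2808 ± 172 and 4285 ± 156, and the log2 difference was 0.61 ± 0.13 (limma adjusted p = 0.0363; 0.0941 with library totals). Per kilobase of exon the wild type mean of Kdelr2 was 1535 and that of Kdelr3 148, so Kdelr2 supplied most of the transcripts of this pair in both groups. Kdelr1, the third receptor gene, belongs to the COPI list below. It had 2116 to 2218 in wild type and 2480 to 3374 in the labelled knockout, apart and not called (0.35 ± 0.16, limma adjusted p = 0.195).

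Of the 6 translocon genes 3 rose, and all 6 log2 fold changes were positive with the deposited scaling, with a median of 0.56. Sec61a1 (chromosome 6, 88503579 to 88518905), encoding the pore of the channel, had 3382, 2904 and 3333 in wild type and 5608, 5087 and 5207 in the labelled knockout. The groups were well apart, and the log2 fold change was 0.73 ± 0.14 (limma adjusted p = 0.0277). An antisense gene, Gm44170, overlaps its exons by up to 388 bases, and the strand setting is unknown, so reads of the pair cannot be told apart. Sec61b (chromosome 4, 47474658 to 47483242), a small subunit of the channel, had 914, 824 and 991 in wild type and 2387, 1678 and 1397 in the labelled knockout. Labelled knockout 1 was highest, and the log2 fold change was 0.97 ± 0.21 (limma adjusted p = 0.0419). Its call was lost without an intensity trend and without a filter.

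The 4 Ssr genes encode the translocon-associated protein complex, which helps some precursors into the channel. Ssr1 (chromosome 13, 37966605 to 37994217) rose, with 1327, 1215 and 1387 in wild type and 1784, 2011 and 1934 in the labelled knockout (log2 difference 0.54 ± 0.13, limma adjusted p = 0.0474). Its call was lost with trimmed-mean, upper-quartile and library-total scaling, without a filter and without an intensity trend. Ssr4 had 1133, 1052 and 1471 in wild type and 2325, 1539 and 1599 in the labelled knockout, apart but not called (0.57 ± 0.21, limma adjusted p = 0.132). Ssr2 had 1772, 1732 and 1945 in wild type and 3196, 2200 and 2088 in the labelled knockout, also apart and not called (0.43 ± 0.19, limma adjusted p = 0.178). Ssr3 overlapped, with 1636 to 1746 in wild type and 1567 to 2082 in the labelled knockout. The 4 subunits of this complex had log2 fold changes from 0.12 to 0.57, and that of Ssr3 was -0.06 with library totals.

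In the signal peptidase, which cuts signal peptides from entering proteins, the rise was in a catalytic subunit. Sec11c had 228, 224 and 259 in wild type and 725, 581 and 521 in the labelled knockout. The lowest labelled knockout library had more than the highest wild type library by a wide margin, with means of 237 ± 19.2 and 609 ± 105 (SD, n = 3 each). Its log2 fold change of 1.35 ± 0.17 had the smallest p of the 40 (limma adjusted p = 0.0125). Sec11a, the other catalytic subunit, was at 596 to 655 and 781 to 1109, apart and not called (0.49 ± 0.17, limma adjusted p = 0.109). Spcs2, an accessory subunit, had 994, 789 and 827 in wild type and 1151, 1089 and 1162 in the labelled knockout, also apart and not called (0.39 ± 0.14, limma adjusted p = 0.118). Spcs1 had 567, 526 and 638 and then 1140, 617 and 705, where labelled knockout 1 alone stood clearly above wild type (0.46 ± 0.24). Spcs3 had 516 to 662 and 604 to 790, with a log2 fold change of 0.30 ± 0.17.

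**Figure D3:**
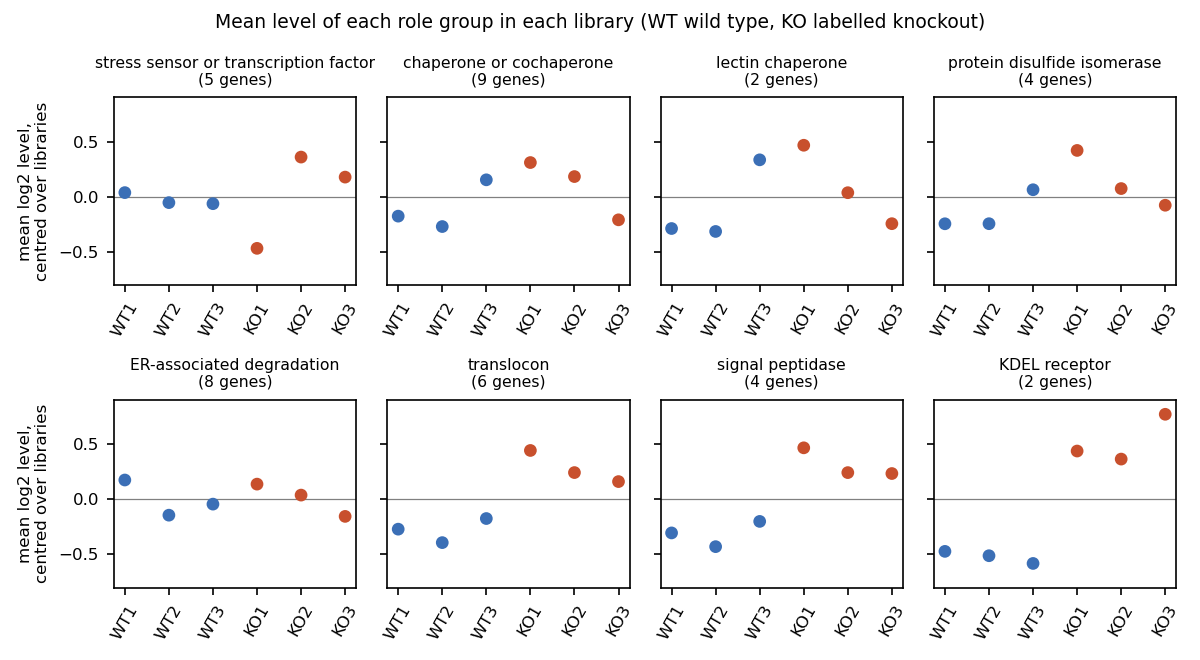
Mean of log2(normalised count + 1) over the genes of each role (y axis, centred on the 6 libraries) in wild type (WT) and labelled knockout (KO) libraries. The translocon, signal peptidase and KDEL receptor panels have the groups apart. WT3 and KO1 are the highest library of their group in the chaperone, lectin, disulfide isomerase, translocon and signal peptidase panels.

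None of the 9 chaperone and cochaperone genes was called, beside 8.79% of all genes, and 2 of the 9 had an unadjusted p under 0.05, beside 30.3%. The median log2 fold change of the 9 was 0.12. Hspa5, encoding BiP, the main ER Hsp70 and the usual reporter of ER stress, had 6700, 6067 and 9304 in wild type and 8412, 9110 and 6390 in the labelled knockout. Each group held libraries near both ends of the range, and the 95% interval of the log2 difference was -0.40 to 0.65. Hsp90b1, the ER Hsp90 GRP94, overlapped in the same way, at 4916 to 6988 and 4271 to 7021 (95% interval -0.56 to 0.55). Manf, a secreted protein that binds BiP, had 913, 853 and 1187 in wild type and 1932, 1374 and 1368 in the labelled knockout. Its groups were apart without a call (0.66 ± 0.20, limma adjusted p = 0.0838). Its exons overlap exons of 3 other annotated genes, so its total is less certain. Sdf2l1, which keeps BiP clients soluble, had 597, 503 and 872 and then 1227, 1041 and 766, overlapping through wild type 3 and labelled knockout 3 (0.63 ± 0.26, limma adjusted p = 0.155).

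Dnajb9 was the 1 gene of the 40 whose labelled knockout libraries all lay below wild type. It encodes ERdj4, a cochaperone that represses IRE1 and is itself a classic XBP1 target. It had 509, 474 and 516 in wild type and 426, 429 and 275 in the labelled knockout, a log2 fold change of -0.44 ± 0.20 that was not called (limma adjusted p = 0.196). Its sign is opposite to that of Xbp1 in the same libraries. Dnajb11, another BiP cochaperone, had 1096 to 1484 and 1354 to 1903 (0.37 ± 0.19), and Hyou1, the ER Hsp110 exchange factor, 1484 to 1915 and 1911 to 2644 (0.29 ± 0.19). Dnajc3, the cochaperone p58IPK that restrains PERK, ranged from 1190 to 1223 and from 1163 to 1477, a log2 difference of 0.07 ± 0.14. Creld2, a stress-induced ER protein, ranged from 788 to 1224 and from 625 to 1474, with labelled knockout libraries at both extremes (0.02 ± 0.33).

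The lectin chaperones, which hold newly glycosylated proteins, had wide spreads within both groups. Calr, encoding calreticulin, had 7537, 7275 and 13170 in wild type and 16159, 9089 and 7671 in the labelled knockout. One library of each group was far above the other 2, and the difference of 0.21 ± 0.35 on the log2 scale was within this spread. Canx, encoding calnexin, had 3596, 3591 and 4870 and then 4765, 4673 and 3754, again overlapping (0.14 ± 0.18). Of the disulfide isomerases, which form and shuffle disulfide bonds, 0 of 4 were called, beside 8.79% of all genes. Of these 4 and of the 2 lectin genes 0 had an unadjusted p under 0.05, beside 30.3%. For so few genes, 0 calls is near the background. All log2 fold changes of the isomerases and lectins were positive with the deposited scaling, beside 49.1% of all genes. P4hb was the most abundant of the 40 genes, with 42052, 42252 and 42714 in wild type and 66834, 45870 and 54306 in the labelled knockout. The groups were apart, with wild type in a narrow band and the labelled knockout spread widely, and the log2 fold change was 0.38 ± 0.21 (limma adjusted p = 0.260). Pdia6 had 1774, 1745 and 2375 and then 3117, 2395 and 2009, overlapping through wild type 3 (0.34 ± 0.21). Pdia3, which works with the lectins, had 3595 to 4984 and 4140 to 6302 (0.30 ± 0.22), and Pdia4 1506 to 1886 and 1431 to 1947 (0.10 ± 0.18).

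**Figure D4:**
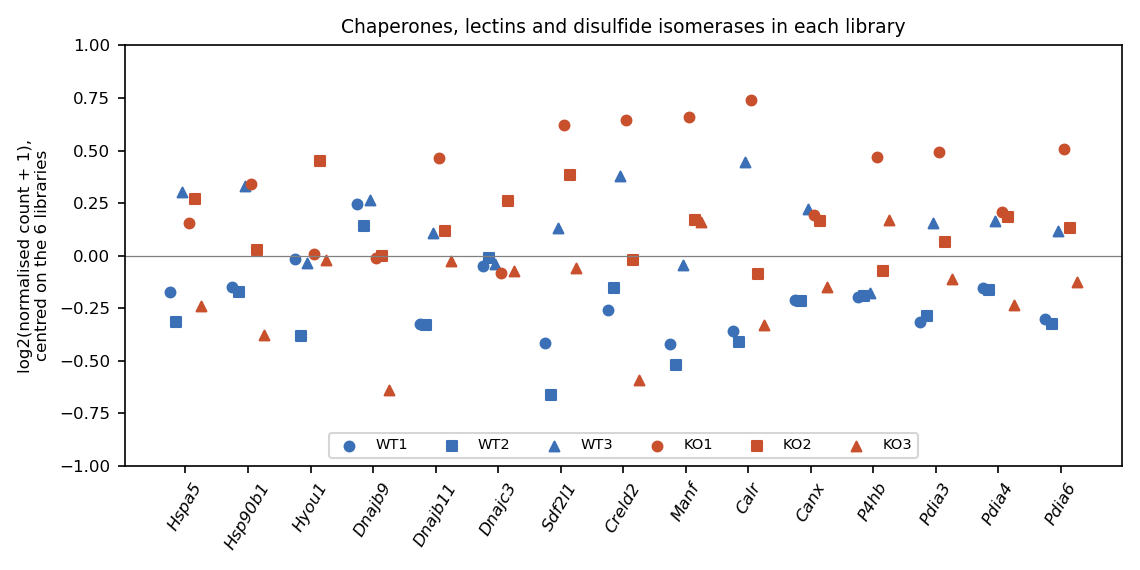
Log2(normalised count + 1) of the 15 chaperone, lectin and disulfide isomerase genes in each library (y axis, centred on the 6 libraries), blue for wild type and red for labelled knockout. The WT3 triangle is above WT1 and WT2 in 13 of the 15 genes and the KO1 circle is above KO2 and KO3 in 11.

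A pattern within the groups ran through many of the 40 genes. Wild type 3 was the highest wild type library and labelled knockout 1 the highest labelled knockout library at once for 5 of 9 chaperones, both lectins, all 4 disulfide isomerases, 3 of 6 translocon genes, 2 of 4 signal peptidase genes and 18 of the 40 genes (45.0%). Over all genes tested this held for 23.4%. These are the libraries whose marker score leaned to the ileum, and of the 5 sensors and transcription factors 0 had this pattern, while Ern1 and Ern2 were lowest in both libraries, as were 21.3% of all genes. With that score as a covariate 17 of the 40 were called, 16 higher and 1 lower, while all genes called went from 1291 to 4527. The 10 genes added were Dnajb11, Sdf2l1, Manf, Pdia3, Pdia6, Derl1, Ssr2, Ssr4 and Spcs1, higher, and Ern1, lower, with a log2 difference of -0.70 (limma adjusted p = 0.0381). Without both libraries 11 of 39 tested members were called, all higher, including the 7, beside 3762 of all 14232 genes tested in that fit. Hspa5 was called in none of these fits. The score holds Lct, which was itself called lower, so score and label are not independent.

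The sex of the libraries also crossed the labels. With the Xist class as a covariate 1 of the 40 stayed called, Sec11c, and all genes called fell to 459. Within the libraries low in Xist (wild type 1 and 2 against labelled knockout 1) the differences of the 7 genes were 0.49 to 1.68 on the log2 scale, and within those high in Xist (wild type 3 against labelled knockout 2 and 3) they were 0.50 to 1.56, with no test for so few libraries. The shared direction of these 7 genes follows from groups that do not overlap. Of genes whose groups overlap, Calr differed by 1.13 in the first class and by -0.66 in the second, and Creld2 by 0.85 and -0.68.

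Genes of ER-associated degradation, which draws misfolded proteins out of the ER for the proteasome, gave 0 calls of 8, beside 8.79% of all genes, and 2 unadjusted p under 0.05, beside 30.3%, with a median log2 fold change of 0.18. Edem1, a lectin that picks out misfolded glycoproteins, had 1233, 1125 and 1215 in wild type and 1443, 1801 and 1440 in the labelled knockout. Its groups were apart (0.38 ± 0.14, limma adjusted p = 0.129). Derl1, a channel subunit, was apart too, with 1683, 1689 and 1673 and then 2140, 2258 and 1993 (0.34 ± 0.12, limma adjusted p = 0.117). Derl3, a derlin of highly secreting cells, had 47, 13 and 17 in wild type and 13, 8 and 7 in the labelled knockout. Its highest value was in wild type 1, the library with the highest sum of pancreas markers, and its difference was -1.19 ± 0.52 (limma adjusted p = 0.174). The part of pancreas RNA in that value was not tested.

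The ubiquitin ligase gene Syvn1 (HRD1) had 987 to 1149 in wild type and 1095 to 1217 in the labelled knockout, a log2 difference of 0.13 ± 0.13. Its partner Sel1l had 2120 to 2264 and 1418 to 2605, with labelled knockout 1 the lowest library (-0.14 ± 0.23). Herpud1, which recruits the ligase complex, had 1708 to 2619 and 1634 to 2621, nearly the same range in both groups (0.09 ± 0.24). Edem2 had 847 to 1215 and 931 to 1844 (0.26 ± 0.29), and Derl2 326 to 379 and 353 to 516 (0.22 ± 0.18). The highest values of these 2 genes were in labelled knockout 1.

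The promoter motifs can be set beside these values, as a description with no test. Of the 11 genes with an ERSE or ERSE-II in their window, 0 were called and the median log2 fold change was 0.12, with a range from -1.19 to 0.37. Of the 19 genes with a window and neither element, 4 were called (Xbp1, Sec61b, Ssr1 and Kdelr3) and the median was 0.38. The other 3 called genes had no window, and with 8.79% of all genes called, 0 of 11 is near the background. Krtcap2, a subunit of oligosaccharyltransferase, was 1 of the 15 other tested genes with either element, at 0.53 on the log2 scale (limma adjusted p = 0.0784), and of these 15 only Rcl1, which acts in ribosome assembly, was called (0.65, limma adjusted p = 0.0345).

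Levels per length gave the order of the genes within wild type. Divided by the exonic length of the gene model, P4hb had 14799 normalised counts per kilobase, followed by Calr with 3239, Hspa5 with 1740, Kdelr2 with 1535 and Hsp90b1 with 1398. P4hb and then Calr stood above all others in each wild type library, while the ranges of Hspa5, Kdelr2 and Hsp90b1 overlapped. At the low end were Derl3 with 12.9, Sec11c with 34.8, Derl2 with 43.6, Ern1 with 48.1 and Atf6 with 52.5 per kilobase. The called genes thus ranged from the fourth place (Kdelr2) to the place before the last (Sec11c). The 40 genes together made up 0.767% to 0.877% of all normalised counts in wild type and 0.862% to 0.960% in the labelled knockout, overlapping ranges, and P4hb alone was 34.5% to 42.5% of the sum over the 40.

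Other genes of the pathway, taken from 9 lists by function with 123 tested genes, were called at about the rate of all genes. Of the 123, 9 were called higher and 2 lower (8.94% called, beside 8.79% of all genes, and 7.32% higher, beside 4.85%). The direction was uneven with the deposited scaling: 98 log2 fold changes were positive, beside 49.1% of all genes, and the median was 0.28, beside -0.01. Apart were 54 genes higher and 5 lower, beside 19.8% and 17.8% of all genes. The oligosaccharyltransferase, which attaches N-glycans beside the translocon, had 3 of 11 called higher: Dad1 (0.85 ± 0.20), Rpn1 (0.69 ± 0.15) and Ostc (0.63 ± 0.15), with limma adjusted p from 0.0408 to 0.0478. Its most abundant uncalled gene, Rpn2, had 2402 to 3242 in wild type and 3202 to 4551 in the labelled knockout. Of 14 genes of the signal recognition particle and further translocon subunits, the channel subunit gene Sec61g rose (343, 357 and 427 in wild type, 1013, 584 and 655 in the labelled knockout, 0.96 ± 0.23, limma adjusted p = 0.0486). Sec62, whose product helps post-translational import and ER recovery from stress, had 1245 to 1515 and 787 to 1071, lower without overlap and not called (-0.58 ± 0.17, limma adjusted p = 0.0721). The receptor gene Srpr overlapped (1515 to 1737 and 1480 to 1833).

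In COPII export from the ER, 3 of 21 genes were called higher, beside 4.85% of all genes. They were Sec13, a coat subunit (3164 to 3415 in wild type, 5213 to 6016 in the labelled knockout, 0.75 ± 0.13), Surf4, a cargo receptor for lipoproteins and other secreted proteins (6281 to 7546 and 10554 to 11360, 0.70 ± 0.14), and Mcfd2, a partner of the cargo lectin LMAN1 (1812 to 2369 and 2927 to 3954, 0.73 ± 0.17). Their limma adjusted p-values were 0.0245, 0.0361 and 0.0476. Sec31a, the most abundant of the uncalled genes in the list, overlapped at 5200 to 7266 and 6035 to 7857. In the COPI list, which retrieves ER proteins, 0 of 11 were called while all 11 log2 fold changes were positive with the deposited scaling, 8 were apart and higher, beside 19.8% of all genes, and 5 had an unadjusted p under 0.05, beside 30.3%, with Arf1 (0.49 ± 0.13, limma adjusted p = 0.0669), Cope (0.57 ± 0.17) and Rer1 (0.55 ± 0.18) nearest to a call. Among 19 glycan trimming and folding enzymes Txndc5, a disulfide isomerase, rose (2205 to 2611 and 3612 to 4206, 0.68 ± 0.14, limma adjusted p = 0.0370). Agr2, the isomerase that goblet cells need for mucin, was apart and not called (1261 to 1346 and 1598 to 3350, 0.82 ± 0.26, limma adjusted p = 0.0907), and Pdia5 and Erp44 were at 0.63 ± 0.18 and 0.43 ± 0.13. Prkcsh, the glucosidase II subunit, overlapped, with labelled knockout 1 the highest (2782 to 3439 and 3164 to 5244). Of 15 further degradation genes 0 were called, beside 8.79% of all genes, and 3 had an unadjusted p under 0.05, beside 30.3%. In this list 13 log2 fold changes were positive, beside 49.1%, and 7 genes were apart and higher and 1 lower, beside 19.8% and 17.8%. Nploc4 and Vimp were at 0.44 ± 0.13 and 0.49 ± 0.14, and the segregase gene Vcp had 4086 to 4760 and 4923 to 6124.

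**Figure D5:**
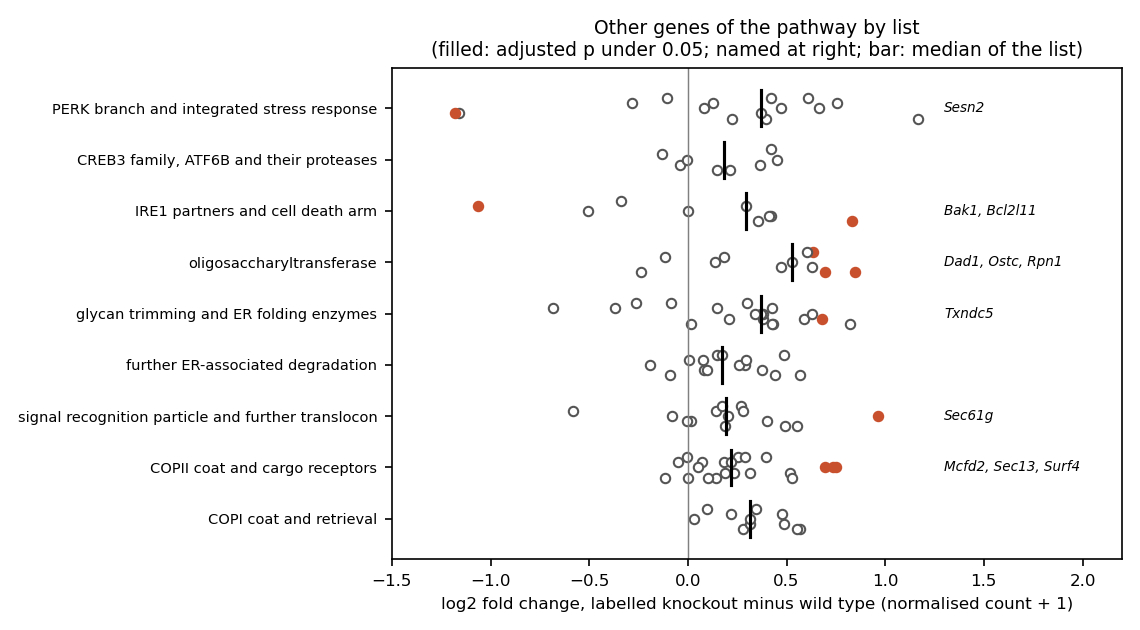
Log2 fold change (x axis, labelled knockout minus wild type) of each of the 123 other pathway genes, 1 row per list, with the median of the list as a bar and called genes filled and named at the right. Calls higher lie in the oligosaccharyltransferase, folding enzyme, translocon, COPII and IRE1 lists, and the 2 calls lower are Sesn2 and Bcl2l11.

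Of 15 genes of the PERK branch and the integrated stress response 0 were called higher and 1 lower, beside 4.85% and 3.94% of all genes. In this list 11 log2 differences were positive, beside 49.1% of all genes, with a median of 0.37. Apart and higher were 5 genes, beside 19.8% of all genes. Among these 5 were Chac1, which degrades glutathione (1.17 ± 0.38), and Ppp1r15a, encoding GADD34, which reverses eIF2alpha phosphorylation (0.42 ± 0.14). The gene called lower was Sesn2, a stress-induced inhibitor of mTORC1, with 578, 720 and 674 in wild type and 409, 256 and 229 in the labelled knockout (-1.18 ± 0.24, limma adjusted p = 0.0342). Atf4, the transcription factor translated when eIF2alpha is phosphorylated, had 2167, 2110 and 2384 and then 3101, 2782 and 2745, apart and not called (0.37 ± 0.13, limma adjusted p = 0.112). Ddit3, encoding the death-promoting factor CHOP, had 729, 856 and 1395 in wild type and 982, 324 and 243 in the labelled knockout. Its lowest values were in labelled knockout 2 and 3, and the groups overlapped (-1.16 ± 0.52, limma adjusted p = 0.186). Wars and Eif2s1 were apart at 0.61 ± 0.17 and 0.47 ± 0.13, without a call, and Cebpb overlapped at 2473 to 2999 and 2127 to 4705.

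Of 9 IRE1 partners and cell death genes, Bak1, a pore-forming death gene that also binds IRE1, rose (1879 to 2254 and 3419 to 3842, 0.83 ± 0.14, limma adjusted p = 0.0210). Bcl2l11, encoding BIM, a death-promoting protein that ERK phosphorylates and destabilises, was called lower (589, 636 and 366 in wild type, 241, 266 and 233 in the labelled knockout, -1.06 ± 0.23, limma adjusted p = 0.0391). Tmbim6, which restrains ER calcium release, was the most abundant uncalled gene of that list (19833 to 21645 and 23567 to 32105, 0.41 ± 0.18). None of the 8 genes of the CREB3 family, ATF6B and their proteases was called, beside 8.79% of all genes, and 2 of the 8 had an unadjusted p under 0.05, beside 30.3%. Creb3l1 and Creb3 were apart at 0.45 ± 0.15 and 0.37 ± 0.13, and Creb3l3, the abundant enterocyte and liver member that governs lipid and acute phase genes, had 11319 to 14684 and 14307 to 22155.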

How the data were processed

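Per the submitters' processing notes, TopHat2 2.1.0, HTSeq 0.6.0 and DESeq2 (no version) were used with the build mm10; no source used here gives their order, the annotation or the strand setting. Each deposited value is a score for 1 gene, a whole number; the values behave as counts divided by a library factor and rounded: median-ratio factors were 1.0054 to 1.0088 in all 6 files while totals differed. They are not raw counts, so limma 3.58.1 (R 4.3.3) was run, with an intensity trend, on log2 of the normalised count plus 1, across the 14686 genes that reached 10 in 3 or more libraries, with genotype as the only term. Fold changes on this scale understate low genes.

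The 40 genes, the lists and the tests were chosen with earlier results of these data known. Named genes followed a rule: every member is named, all libraries are given for sensors, called genes and the 2 largest uncalled differences of a role, and list genes by smallest p and abundance. Hspa5, Dnajb9, Derl1, Krtcap2, Rcl1, Sec62, Agr2, Atf4, Chac1, Ppp1r15a and Ddit3, and the list genes beyond the rule, were added after their values were seen. Lengths and gene positions are from GENCODE vM21 (GRCm38), sequences from RefSeq (GRCm38.p6). Exons of 14 of the 40 genes overlap another gene entry, so their reads could be shared. Counting intervals need raw counts and were not computed. The scripts were tested on simulated data, which gave all genes the same relative spread, unlike these data. There 21 of 67 genes changed 1.5-fold were called, 59 of 67 changed 2-fold and 66 of 66 changed 4-fold. Changes near 1.5-fold were thus mostly missed there, and a gene that was not called is not shown to be unchanged. Alternatives changed the scaling, pseudocount, filter, prior, block, covariates and libraries. One gene of the named-gene rule is not reported here.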

Additional observations from a re-analysis of the deposited data

How the results depend on the processing

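The number of the 40 genes called, 7 with all libraries, was 4 with library totals, 4 without an intensity trend, 11 without both libraries low in the marker score (wild type 3 and labelled knockout 1) and 17 with the marker score as a covariate, and 1 with the Xist class as a covariate, an alternative chosen after seeing the data. It ran from 0 to 7 when 1 library was left out, and was 5 to 7 in the other scaling, pseudocount, filter and prior settings. All genes called, 1291, went to 3762 without both libraries, 4527 with the marker score, 459 with the Xist class, and from 28 to 2998 when 1 library was left out. The 11 calls of the pathway lists became 7 with library totals, 7 with upper-quartile scaling, 5 without a filter, 6 without an intensity trend, 35 without both libraries, 44 with the marker score, 1 with the Xist class, and 0 to 23 when 1 library was left out. The higher share of all calls was 55.2%, and 44.5% with upper-quartile scaling, 29.6% with library totals. The median log2 fold change of the 40 moved to 0.12 with library totals and was 0.22 to 0.38 when 1 library was left out.

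With a replicate block, 0 of the 40 genes, 0 of the pathway lists and 64 of all genes were called. The numbers gave no sign of pairing the samples: same-numbered libraries correlated in their deviations at -0.37, 0.30 and -0.16, and no labelled knockout library correlated best with the wild type library of its own number. Deviations of 3 libraries from their group mean sum to 0, so these correlations are not independent and cannot exclude pairing.

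No called gene changed sign in any of the 19 alternatives, and 16 uncalled ones did. With library totals the log2 fold changes of opposite sign were Ern2 -0.111, Atf6 -0.0833, Hspa5 -0.0499, Dnajc3 -0.106, Creld2 -0.150, Canx -0.0373, Pdia4 -0.0713, Herpud1 -0.0832, Syvn1 -0.0405 and Ssr3 -0.0553. With upper-quartile scaling this was Creld2 -0.0320, with the marker score Ern2 -0.0508 and Hsp90b1 0.0831, with the Xist class Ern2 -0.0399 and Atf6 -0.00831, and without both libraries Eif2ak3 0.253, Creld2 -0.0986, Herpud1 -0.172 and Sel1l 0.0735. When 1 library was left out, values crossed 0 in these ranges: Atf6 -0.0855 to 0.276, Calr -0.104 to 0.491, Creld2 -0.293 to 0.325, Dnajc3 -0.0449 to 0.127, Edem2 -0.0661 to 0.426, Eif2ak3 -0.141 to 0.133, Ern1 -0.804 to 0.115, Ern2 -0.0896 to 0.361, Herpud1 -0.0504 to 0.310, Hsp90b1 -0.178 to 0.180, Hspa5 -0.00243 to 0.306 and Sel1l -0.334 to 0.105. Depth limits Derl3 most, at 7 to 47 normalised counts; it was untested with a filter at 50 and without both libraries.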
